A study of Mus musculus with 36 samples.

Results

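The comparison described here sets brains of Gpt2 knockout mice given dm-αKG (KO-aKG, 8 libraries) against brains of Gpt2 knockout mice given vehicle (KO-Veh, 10 libraries). It uses 18 of the 36 libraries of the series, chosen by their labels, and every gene that passed a filter on low counts, 16255 of 56184 gene symbols. The other 18 libraries come from Gpt2 wild types given dm-αKG (WT-aKG, 8 libraries) or vehicle (WT-Veh, 10 libraries), and they enter the fit and a few side-by-side values. All mice were on postnatal day 19, treated mice received 600 mg per kg by intraperitoneal injection, and the tissue used for RNA was a 10 mg brain sample. The labels state neither allele, strain nor sex, neither the number nor the timing of injections, and no brain region for the pieces, and nothing says whether libraries share a litter.

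Gpt2 encodes the mitochondrial alanine transaminase, which interconverts alanine and α-ketoglutarate with pyruvate and glutamate. The compound dm-αKG is α-ketoglutarate esterified with methyl groups, which enters cells and is cleaved to α-ketoglutarate, an intermediate of the tricarboxylic acid (TCA) cycle. The integrated stress response acts through the transcription factor ATF4, and cells use it when amino acids run short or when mitochondria or the endoplasmic reticulum are disturbed. Its targets include transporters, synthetases and stress genes such as Chac1, which encodes an enzyme that degrades glutathione, Eif4ebp1, which encodes an inhibitor of cap-dependent translation, and Shmt2, which encodes the mitochondrial serine hydroxymethyltransferase.

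The Chac1 and Fgf21 promoters are shown because both genes belong to the ATF4 list and stand among the results below. ATF4 binds with C/EBP factors to elements of the form TGATGNAA, and capitals mark matches to that form on either strand. Both windows are from RefSeq on GRCm38.p6, run 5′ to 3′ on the strand of the gene, and cover 250 bases before to 50 bases after the annotated start. The Chac1 window is chr2:119350992-119351291 on the plus strand, and the Fgf21 window is chr7:45615441-45615740 on the minus strand.
Chac1: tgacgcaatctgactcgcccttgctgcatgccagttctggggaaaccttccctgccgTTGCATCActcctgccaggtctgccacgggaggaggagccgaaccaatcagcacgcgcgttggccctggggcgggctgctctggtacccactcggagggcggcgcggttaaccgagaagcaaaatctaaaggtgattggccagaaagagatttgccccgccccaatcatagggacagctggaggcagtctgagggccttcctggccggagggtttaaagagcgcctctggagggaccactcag
Fgf21: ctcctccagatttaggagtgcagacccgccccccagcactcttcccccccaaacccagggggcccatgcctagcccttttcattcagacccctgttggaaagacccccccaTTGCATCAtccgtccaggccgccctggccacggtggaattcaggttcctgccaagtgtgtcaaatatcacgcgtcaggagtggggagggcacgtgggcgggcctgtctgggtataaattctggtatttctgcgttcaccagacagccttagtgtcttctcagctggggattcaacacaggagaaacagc
The match begins 193 bases before the start of Chac1 and 139 bases before the start of Fgf21. Of the 38 genes of the ATF4 list 33 had a promoter in the table, and 11 of these (33.3%) held at least 1 match, against 1219 of 27025 genes (4.51%) in the whole table. The Shmt2 window held none, and no Eif4ebp1 window was used. A match describes letters in a window and is not evidence of binding.

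KO-aKG libraries held 5.77 to 11.9 M counts (median 10.5 M) and KO-Veh libraries held 9.94 to 12.1 M (median 11.4 M). The share of mitochondrial ribosomal RNA in the counts lay between 14.4% and 21.2% in KO-aKG and between 14.1% and 29.3% in KO-Veh. Xist counts exceeded those of the Y-linked gene Ddx3y in 4 of 8 KO-aKG libraries and in 2 of 10 KO-Veh libraries. KO-aKG-3 and KO-aKG-7 held 60 and 50 Xist counts beside 349 and 334 Ddx3y counts, while the Ddx3y-rich KO-Veh libraries held at most 15 Xist counts. The part of this imbalance in the results was not tested beyond the alternatives given in the closing section.

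Gpt2 itself lies at chr8:85492576-85527560 in the GENCODE M21 annotation of GRCm38. Its lowest, median and highest levels were 1.12, 2.52 and 3.18 CPM (counts scaled to a fixed library size by TMM) in KO-aKG and 0.881, 1.79 and 3.30 CPM in KO-Veh. The ranges were 26.3 to 38.1 CPM in WT-aKG and 22.0 to 39.0 CPM in WT-Veh, so no knockout library reached a wild-type level. KO-aKG and KO-Veh overlapped, with a log2 fold change of 0.23 (SE 0.20, 95% interval −0.18 to 0.63, edgeR adjusted p = 0.681).

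The libraries of a group are labelled as biological replicates, and p-values measure the spread between them. Across all genes no difference between KO-aKG and KO-Veh passed the test. edgeR called 0 of 16255 genes (0%) at an adjusted p under 0.05, and the smallest adjusted p was 0.214. At an unadjusted p under 0.05 there were 1973 genes (12.1%), of which 936 (5.76%) were higher and 1037 (6.38%) lower in KO-aKG. Without KO-aKG-8 there were 1206. limma on log2(CPM + 1) of the deposited CPM values called 0 of the 13845 genes it tested, with 1938 at an unadjusted p under 0.05. DESeq2 called 20, with 2033 genes at that level, but gave an adjusted p to 1443 genes only.

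The same comparison with scores of 5 brain regions as covariates (cerebellum, cerebral cortex, striatum, hypothalamus, and hindbrain with midbrain) also called 0 genes (0%). The smallest adjusted p was then 0.250. Genes at an unadjusted p under 0.05 numbered 891 (5.48%), 492 higher (3.03%) and 399 lower (2.45%), and DESeq2 with these covariates called 0, with 869 at that level. The edgeR number was 1831 without KO-Veh-8, 531 without KO-Veh-9 and 530 without KO-aKG-7. The 95% interval of the fold change lay within 2-fold of no change for 13459 genes (82.8%) without covariates and for 15042 genes (92.5%) with them. The median half-width of that interval was 0.35 and 0.29 on the log2 scale in these fits. Changes above 2-fold were estimated for 216 genes without covariates and for 47 with them.

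**Figure D1:**
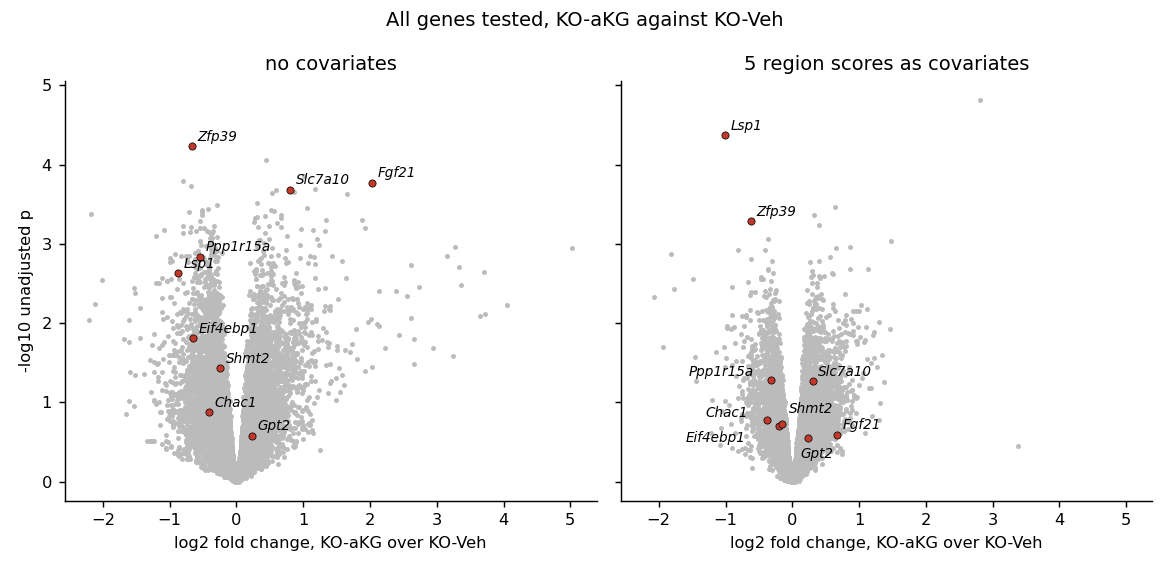
Log2 fold change of KO-aKG over KO-Veh (x axis) against −log10 of the unadjusted edgeR p (y axis) for 16255 genes, without covariates (left) and with 5 region scores (right). Red points are named genes, and the cloud is narrower on the right, where 47 genes lie beyond 2-fold against 216 on the left.

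Eif4ebp1 (chr8:27260329-27276674) had lowest, median and highest levels of 2.27, 8.13 and 12.9 CPM in KO-aKG, against 4.96, 12.7 and 17.4 CPM in KO-Veh. The groups overlapped, and 7 of 8 KO-aKG libraries lay below the KO-Veh median. The means were 7.84 ± 3.45 CPM in KO-aKG (SD, n = 8) and 12.3 ± 4.29 CPM in KO-Veh (SD, n = 10). The log2 fold change was −0.64 (SE 0.25, 95% interval −1.16 to −0.13), with an unadjusted p = 0.0154 and an adjusted p = 0.304 in edgeR. With region scores it was −0.20 (SE 0.15, −0.50 to 0.11). The exact 2-sided permutation test of mean log2(CPM + 0.5) over all 43758 splits gave p = 0.0373, which is not adjusted for the choice of gene.

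Chac1 (chr2:119351229-119354381) had lowest, median and highest levels of 7.78, 13.7 and 22.4 CPM in KO-aKG, against 5.44, 21.4 and 29.1 CPM in KO-Veh. The ranges overlapped widely, and the KO-Veh libraries spread further than the KO-aKG libraries. The log2 fold change was −0.41 (SE 0.27, −0.96 to 0.13, edgeR adjusted p = 0.555), and −0.38 (SE 0.27) with region scores. The exact permutation test gave p = 0.384.

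Shmt2 (chr10:127517123-127522444) had lowest, median and highest levels of 15.5, 20.5 and 25.5 CPM in KO-aKG, against 16.7, 25.8 and 30.4 CPM in KO-Veh. All 8 KO-aKG libraries lay below the KO-Veh median, but the ranges overlapped. The log2 fold change was −0.25 (SE 0.11, −0.48 to −0.02, edgeR adjusted p = 0.378), and −0.16 (SE 0.11) with region scores. The exact permutation test gave p = 0.0990.

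In wild types the means of the 3 genes were lower than in either knockout group. Eif4ebp1 averaged 4.24 ± 1.43 CPM in WT-aKG (SD, n = 8) and 4.08 ± 1.32 CPM in WT-Veh (SD, n = 10). Chac1 averaged 2.13 ± 0.817 CPM in WT-aKG and 2.42 ± 1.02 CPM in WT-Veh, and Shmt2 averaged 13.2 ± 0.961 CPM in WT-aKG and 12.9 ± 1.94 CPM in WT-Veh. Of all genes tested, 1.87% were called in KO-aKG against WT-aKG and 4.31% in KO-Veh against WT-Veh. KO-aKG against WT-aKG gave log2 fold changes of 0.90 (SE 0.27, edgeR adjusted p = 0.0821) for Eif4ebp1, 2.76 (SE 0.32, adjusted p = 5.21e-07) for Chac1 and 0.64 (SE 0.12, adjusted p = 0.00211) for Shmt2. KO-Veh against WT-Veh gave 1.59 (SE 0.24) for Eif4ebp1, 2.98 (SE 0.28) for Chac1 and 0.92 (SE 0.11) for Shmt2. Each of these comparisons shares its knockout libraries with the comparison of KO-aKG and KO-Veh, so the values are only set side by side.

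**Figure D2:**
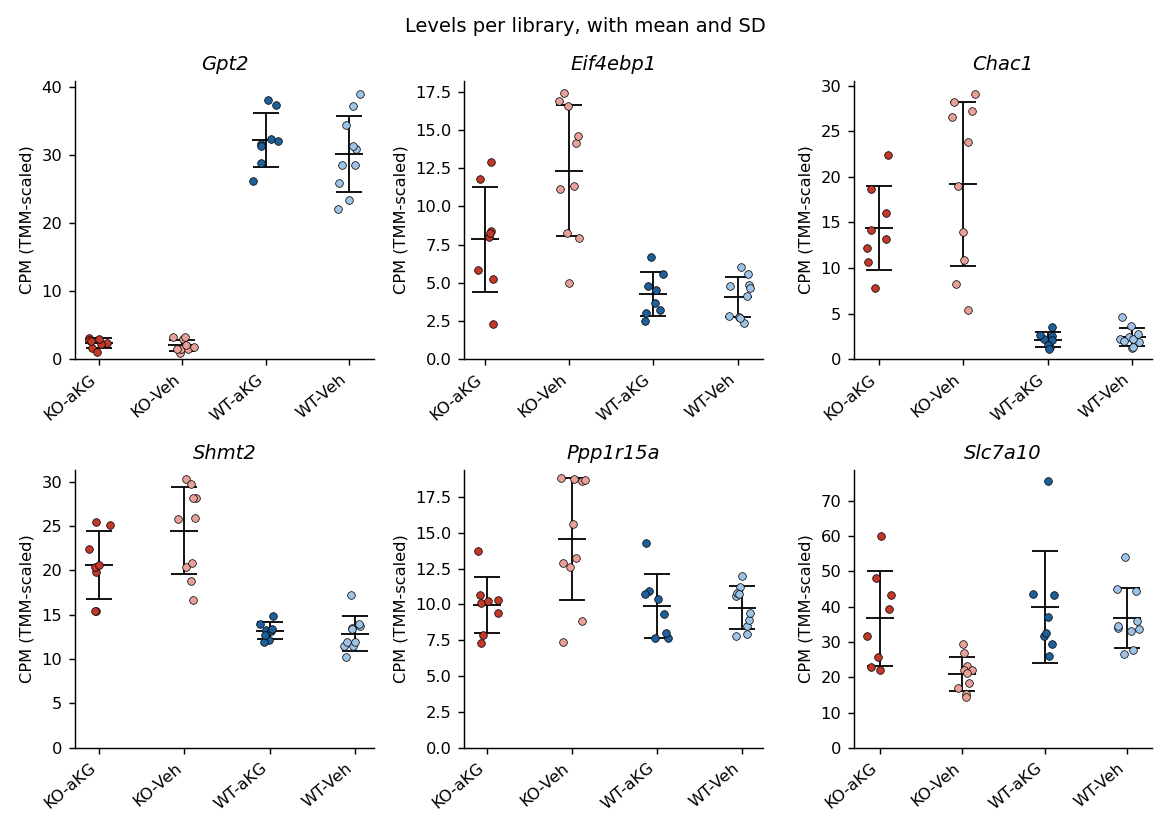
CPM per library (y axis) of Gpt2, Eif4ebp1, Chac1, Shmt2, Ppp1r15a and Slc7a10 in the 4 groups (x axis), with horizontal lines for the mean and SD. Gpt2 is near 2 CPM in both knockout groups, and the KO-aKG points of Eif4ebp1, Chac1 and Shmt2 overlap those of KO-Veh.

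Scores of brain region markers were compared between KO-aKG and KO-Veh without a test, and 0 members of any region list were called. A library was given a score for each list, the log2 CPM averaged over the listed genes that passed the filter. These were 12 of 25 for hindbrain and midbrain and 17 of 21 for hypothalamus. The cortex score ran from 3.18 to 5.71 in KO-aKG (mean 4.53 ± 0.913, SD, n = 8) and from 2.29 to 6.11 in KO-Veh (mean 5.36 ± 1.13, SD, n = 10), a difference of −0.83. The hindbrain and midbrain score averaged 0.946 ± 1.52 in KO-aKG and −0.756 ± 0.533 in KO-Veh. It ran from −1.67 to 2.71 in KO-aKG and from −1.43 to 0.0952 in KO-Veh. A score under 0 stands for a level under 1 CPM, so this score rests on genes of low level. The hypothalamus score averaged 2.42 ± 1.49 in KO-aKG and 1.26 ± 1.52 in KO-Veh. The hippocampus score averaged 3.23 in KO-aKG and 3.24 in KO-Veh, the striatum score 3.73 in KO-aKG and 3.55 in KO-Veh, and the thalamus score 3.45 in KO-aKG and 3.10 in KO-Veh. In wild types the cortex score averaged 4.59 in both WT-aKG and WT-Veh, the hindbrain and midbrain score −0.0157 in WT-aKG and −0.0443 in WT-Veh, and the hypothalamus score 0.841 in WT-aKG and 0.867 in WT-Veh. The cerebellum score had a median of 3.24 in KO-aKG and 3.02 in KO-Veh, and its mean was 3.57 in both groups, with KO-Veh-7 at 7.68. In the edgeR fit all 19 cerebellum markers had negative log2 fold changes (median −0.76), and 10 were positive with region scores. The mean of these same markers is a covariate of that second fit. Their values there are drawn towards no change by construction and are not a separate result. In pieces of tissue, fewer cells of a type and less RNA per cell cannot be told apart, and the part of these scores in the results was not tested other than by the covariates.

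**Figure D3:**
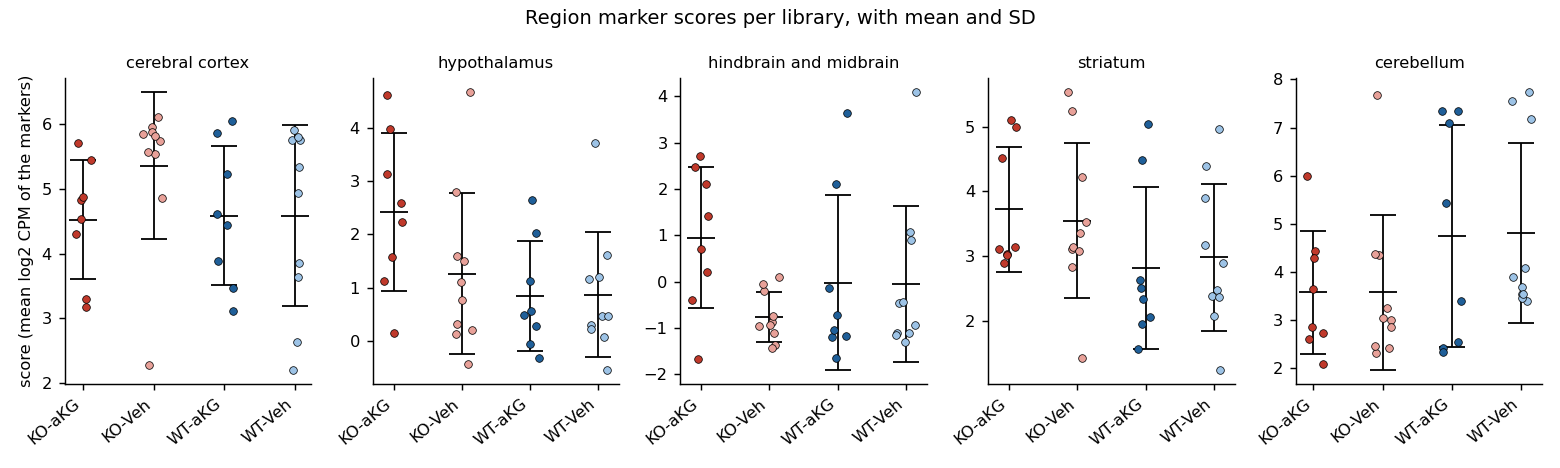
Score of 5 region marker lists per library (y axis, mean log2 CPM) in the 4 groups (x axis), with the mean and SD. The KO-aKG mean lies lower for cortex and higher for hypothalamus and for hindbrain and midbrain than the KO-Veh mean, the points overlap, and KO-Veh-7 stands apart at a cortex score of 2.29.

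The 3 marker genes were set against the cortex score across libraries, 9 relations in all. For Eif4ebp1 over the 18 knockout libraries, Pearson's r was 0.849 and Spearman's rho 0.870 (permutation p = 2e-05, adjusted p = 0.00018, and p = 1e-05 for rho, the smallest that 1e+05 resamples can give). Without the 2 libraries farthest from the median cortex score r was 0.826. Within KO-aKG r was 0.907 and rho 0.952 (n = 8, exact p = 0.000347, adjusted p = 0.00156, and exact p = 0.00114 for rho), and r was 0.882 without the 2 farthest libraries. Within KO-Veh r was 0.789 and rho 0.782 (n = 10, permutation p = 0.0105, adjusted p = 0.0236, and p = 0.0098 for rho), and r was 0.743 without 2 libraries. Eif4ebp1 was therefore high where cortex markers were high in both groups.

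For Shmt2 over the 18 libraries r was 0.627 and rho 0.804 (permutation p = 0.00502, adjusted p = 0.0151, and p = 7e-05 for rho), and 0.545 without 2 libraries. Within KO-aKG r was 0.574 and rho 0.667 (n = 8, exact p = 0.135 and 0.0831, adjusted p = 0.152), and within KO-Veh r was 0.551 and rho 0.855 (permutation p = 0.0630 and 0.00304, adjusted p = 0.109). For Chac1 r was 0.425 and rho 0.649 over the 18 libraries (permutation p = 0.0778 and 0.00471, adjusted p = 0.109), and 0.227 without 2 libraries. Within KO-aKG r was −0.155 and rho −0.0714 for Chac1 (n = 8, exact p = 0.709 and 0.882), and within KO-Veh r was 0.573 and rho 0.867 (permutation p = 0.0844 and 0.00203, adjusted p = 0.109). The adjusted p-values in these 9 relations are those of Pearson's r, and by them no Chac1 relation passed. The p-values of rho were not adjusted.

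**Figure D4:**
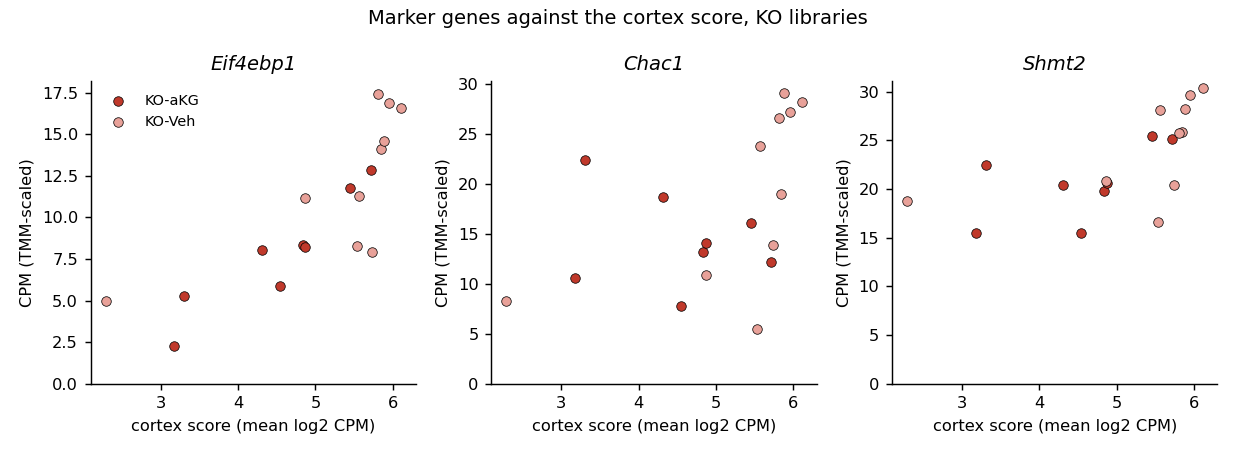
CPM of Eif4ebp1, Chac1 and Shmt2 (y axis) against the cortex score (x axis, mean log2 CPM) in the 8 KO-aKG and 10 KO-Veh libraries. Eif4ebp1 is higher where the cortex score is higher in both groups, with r of 0.907 in KO-aKG and 0.789 in KO-Veh.

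The ATF4 list showed no called member. Of its 38 genes, the targeted gene Gpt2 among them, 13 had a positive and 25 a negative log2 fold change. The median was −0.08, against −0.01 over all genes. At an unadjusted p under 0.05 there were 8 members, against 12.1% of all genes. Of these 2 were higher and 6 lower, against 5.76% and 6.38% of all genes. The median of the list was −0.07 with region scores, and 0 members were then at that level. Of the 4 most abundant members, Slc3a2, a transporter subunit, averaged 106 ± 16.5 CPM in KO-aKG and 111 ± 21.9 CPM in KO-Veh (log2 fold change −0.07, SE 0.12). Atf4 itself averaged 105 ± 11.9 CPM in KO-aKG and 106 ± 19.8 CPM in KO-Veh (−0.02, SE 0.11). Slc7a5, a transporter of large neutral amino acids, averaged 90.8 ± 15.6 CPM in KO-aKG and 105 ± 19.9 CPM in KO-Veh (−0.21, SE 0.12). Psph, the last enzyme of serine synthesis, averaged 87.9 ± 31.8 CPM in KO-aKG and 107 ± 28.2 CPM in KO-Veh (−0.28, SE 0.18, and 0.01 with region scores).

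Other members were named after their values were seen. Ppp1r15a, whose product directs dephosphorylation of eIF2α, had lowest, median and highest levels of 7.30, 10.2 and 13.7 CPM in KO-aKG, against 7.40, 14.4 and 18.8 CPM in KO-Veh. All 8 KO-aKG libraries lay below the KO-Veh median, with a log2 fold change of −0.54 (SE 0.16, edgeR adjusted p = 0.214) and −0.31 (SE 0.15) with region scores. It averaged 9.88 ± 2.23 CPM in WT-aKG and 9.79 ± 1.48 CPM in WT-Veh. Jdp2, a transcription factor of the AP-1 family, gave −0.55 (SE 0.19) and Nupr1, a stress-induced chromatin protein, −0.64 (SE 0.28), neither called. Ddit3, which encodes CHOP, averaged 47.3 ± 9.55 CPM in KO-aKG and 47.5 ± 15.5 CPM in KO-Veh (0.00, SE 0.16). Asns, the asparagine synthetase, averaged 80.9 ± 16.9 CPM in KO-aKG and 91.7 ± 20.4 CPM in KO-Veh (−0.18, SE 0.16).

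Fgf21, a secreted hormone of stressed tissues, was the list member with the largest estimated difference. Its lowest, median and highest levels were 0.303, 1.67 and 11.7 CPM in KO-aKG, against 0.163, 0.880 and 1.37 CPM in KO-Veh. KO-aKG-6 (7.37 CPM) and KO-aKG-8 (11.7 CPM) stood above all other libraries, and the other 6 lay between 0.303 and 1.91 CPM. The log2 fold change was 2.03 (SE 0.48, 95% interval 1.05 to 3.02, edgeR adjusted p = 0.214), 0.68 (SE 0.58, −0.51 to 1.86) with region scores and 1.37 without KO-aKG-8. Gdf15, another secreted stress factor, averaged 1.39 ± 0.840 CPM in KO-aKG and 1.37 ± 0.657 CPM in KO-Veh (0.04, SE 0.29).

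Other lists of amino acid genes, some of whose members are also in the ATF4 list, held 0 called genes. The synthetases that load amino acids onto cytosolic tRNAs numbered 20, of which 6 had a positive and 14 a negative value (median −0.02, and −0.06 with region scores, 0 called). Hars1 averaged 105 ± 14.3 CPM in KO-aKG and 109 ± 16.5 CPM in KO-Veh (−0.05, SE 0.11), and Sars1 averaged 90.9 ± 14.2 CPM in KO-aKG and 91.4 ± 16.9 CPM in KO-Veh (−0.01, SE 0.10). All 20 had a 95% interval within 2-fold of no change in both fits. In the list for serine, glycine and folate-dependent metabolism (25 genes), 12 were positive and 13 negative (median −0.01, and 0.00 with region scores), again with every interval within 2-fold. Values in this list ran from −0.40 to 0.36 without covariates. Mat2b encodes a subunit of methionine adenosyltransferase and was at −0.40 (SE 0.15) without and −0.06 (SE 0.10) with region scores. Over the settings of the closing section Mat2a ran from 0.07 to 0.42 and Psat1 from 0.03 to 0.31. Psph ran from −0.42 to 0.06.

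The mTORC1 brakes, which restrain growth signalling, had 3 positive and 15 negative values of 18 (median −0.17, and −0.10 with region scores), with 0 called. Of these Sesn3, a sestrin, averaged 48.6 ± 9.47 CPM in KO-aKG and 52.7 ± 5.55 CPM in KO-Veh (−0.12, SE 0.11), and Castor2, a homologue of the arginine sensor CASTOR1, averaged 36.9 ± 7.71 CPM in KO-aKG and 45.4 ± 10.4 CPM in KO-Veh (−0.30, SE 0.21). Of 23 amino acid transporters 11 were positive and 12 negative (median −0.02), with values from −0.74 to 0.98, and 5 were positive and 18 negative with region scores (median −0.08). Slc1a2, the main glutamate transporter of astrocytes, averaged 866 ± 219 CPM in KO-aKG and 1135 ± 450 CPM in KO-Veh (−0.39, SE 0.35, and −0.05 with region scores). Of 18 tested genes of alanine and glutamate metabolism, Gpt2 among them, 10 were positive (median 0.05), and 7 with region scores (median −0.02). Gpt, the cytosolic alanine transaminase and named after its values were seen, averaged 7.37 ± 1.63 CPM in KO-aKG and 6.56 ± 1.61 CPM in KO-Veh (0.18, SE 0.24, and 0.49, SE 0.19, with region scores, adjusted p = 0.855).

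Genes that make, use or depend on α-ketoglutarate were examined next. Of 39 TCA cycle and pyruvate genes 28 were positive and 11 negative (median 0.07, and 0.01 with region scores), and every interval lay within 2-fold in both fits. Of 37 tested α-ketoglutarate-dependent dioxygenases 17 were positive and 20 negative (median −0.05 in both fits). Egln1, an oxygen sensor that marks HIF for degradation, averaged 45.0 ± 8.01 CPM in KO-aKG and 55.4 ± 9.88 CPM in KO-Veh (−0.30, SE 0.12, and −0.11, SE 0.12, with region scores). The demethylases Alkbh5 and Fto, which act on methylated RNA, gave −0.15 (SE 0.09) and 0.02 (SE 0.13).

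Of 48 nuclear genes of oxidative phosphorylation 40 were positive (median 0.08), and 45 with region scores (median 0.13), with 0 called in either fit. All 13 genes of the mitochondrial genome were negative (median −0.48, and −0.28 with region scores), with 0 called in either fit and 6 at an unadjusted p under 0.05 without covariates (6.38% of all genes were lower at that level). mt-Nd1, a subunit of complex I, averaged 17137 ± 3343 CPM in KO-aKG and 25355 ± 10800 CPM in KO-Veh (−0.57, SE 0.23, and −0.35, SE 0.22, with region scores). With the share of mitochondrial ribosomal RNA as covariate, a setting chosen after seeing the data, mt-Nd1 was at −0.26. Levels of mitochondrial transcripts are uncertain because near-identical nuclear copies can share their reads. Mitochondrial ribosomal RNA averaged 17.8% of counts in KO-aKG and 19.9% in KO-Veh. The score of 8 nuclear and RNA quality transcripts averaged 8.15 ± 0.195 in KO-aKG and 7.68 ± 0.599 in KO-Veh (list median 0.51, and 0.32 with region scores), and its part in these values was not tested. Of 42 cytosolic ribosomal protein genes 28 were positive (median 0.04), and all 42 with region scores (median 0.15).

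Lipid synthesis lists had positive medians without covariates and negative medians with them. Of 25 cholesterol synthesis genes 23 were positive (median 0.23), with 0 called and 5 at an unadjusted p under 0.05, against 5.76% of all genes in that direction, and 10 were positive with region scores (median −0.04). Msmo1, a sterol oxidase, averaged 75.8 ± 14.7 CPM in KO-aKG and 59.1 ± 18.2 CPM in KO-Veh (0.36, SE 0.17, and 0.17, SE 0.15, with region scores). Of 17 fatty acid synthesis genes 15 were positive (median 0.24) and 4 with region scores (median −0.04). Scd2, a desaturase, averaged 667 ± 183 CPM in KO-aKG and 566 ± 85.5 CPM in KO-Veh (0.24, SE 0.15, and −0.10 with region scores). All 23 oligodendrocyte markers had positive values (median 0.85, and 0.06 with region scores) with 0 called. Without covariates 17 were at an unadjusted p under 0.05, against 5.76% of all genes in that direction, and 0 were with region scores. Their score averaged 6.19 ± 0.671 in KO-aKG and 5.34 ± 0.604 in KO-Veh. The part of these cells in the lipid values was not tested.

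Synaptic genes had negative values without covariates. All 29 synaptic genes were negative (median −0.49), with 0 called and 14 at an unadjusted p under 0.05, against 6.38% of all genes in that direction, and the median was −0.09 with region scores. Snap25, a protein of vesicle fusion, averaged 540 ± 121 CPM in KO-aKG and 662 ± 120 CPM in KO-Veh (−0.29, SE 0.15, and −0.19 with region scores). Of 18 immediate early genes, which follow neuronal activity, 17 were negative without covariates (median −0.46) and 13 positive with region scores (median 0.14). The direction of that list thus differed between the fits. Egr1 averaged 62.1 ± 36.5 CPM in KO-aKG and 93.2 ± 44.1 CPM in KO-Veh (−0.59, SE 0.44, and 0.20, SE 0.15, with region scores).

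**Figure D5:**
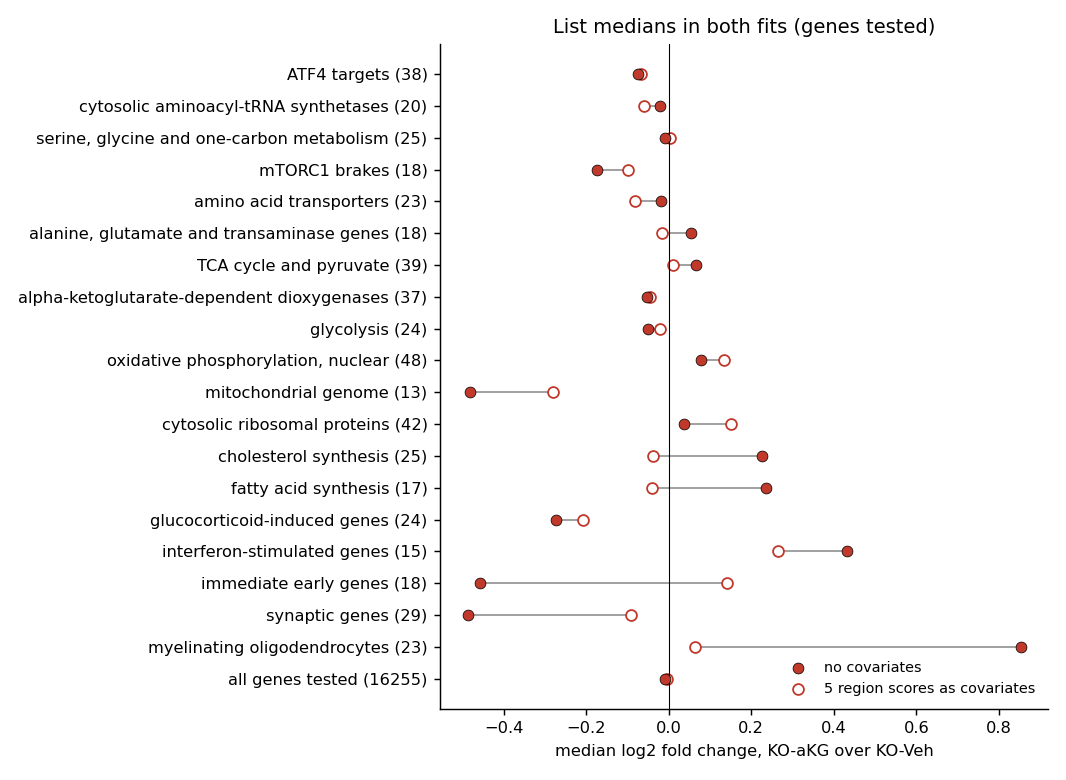
Median log2 fold change of KO-aKG over KO-Veh (x axis) of 19 gene lists and of all genes tested (rows, number of genes in brackets), without covariates (filled) and with 5 region scores (open). The myelin list goes to 0.06 with region scores and 0.85 without, while the ATF4 list stays at −0.07 and −0.08.

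Glucocorticoid-induced genes had 7 positive and 17 negative values of 24 (median −0.27), and 3 positive and 21 negative with region scores (median −0.21). The members at an unadjusted p under 0.05 numbered 1 higher and 7 lower without covariates, where 5.76% of all genes were higher and 6.38% lower at that level. With region scores they numbered 1 higher and 3 lower, where the shares of all genes were 3.03% and 2.45%, and 0 were called in either fit. Klf9, a transcription factor induced by glucocorticoids, averaged 238 ± 67.9 CPM in KO-aKG and 331 ± 80.2 CPM in KO-Veh (−0.48, SE 0.15, and −0.20, SE 0.12, with region scores). Mt1, a metallothionein, averaged 1342 ± 287 CPM in KO-aKG and 1592 ± 731 CPM in KO-Veh (−0.25, SE 0.21). Interferon-stimulated genes had 14 of 15 positive values in both fits (median 0.43, and 0.26 with region scores), with 0 called. Without covariates 7 were higher at an unadjusted p under 0.05, against 5.76% of all genes, and with region scores 1 was, against 3.03%. KO-aKG-8 stood apart there with a score of 3.32, against 1.82 to 2.29 in the other 7 KO-aKG libraries and 1.69 to 2.07 in KO-Veh, and the part of this library in the list's values was not tested.

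Single genes with the smallest p were chosen after their values were seen. Zfp39, a zinc finger protein, had lowest, median and highest levels of 1.47, 2.02 and 2.75 CPM in KO-aKG, against 2.41, 3.38 and 3.73 CPM in KO-Veh, with a log2 fold change of −0.67 (SE 0.15, edgeR adjusted p = 0.214) and −0.62 (SE 0.16) with region scores. Lsp1, an actin-binding protein of leukocytes, had the smallest p with region scores among genes with established names, with an adjusted p = 0.348. It averaged 2.11 ± 0.648 CPM in KO-aKG and 3.86 ± 1.45 CPM in KO-Veh, with a log2 fold change of −0.88 (SE 0.27) without covariates. Slc7a10, a transporter of small neutral amino acids including D-serine, ran from 22.0 to 60.2 CPM in KO-aKG, against 14.3 to 29.4 CPM in KO-Veh. Its log2 fold change was 0.81 (SE 0.19, adjusted p = 0.214), and 0.30 (SE 0.15) with region scores.

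The CPM ranges of KO-aKG and KO-Veh did not overlap for 6 genes (0.0369% of those tested), 2 higher (0.0123%) and 4 lower (0.0246%) in KO-aKG. Samd12 ran from 5.19 to 11.9 CPM in KO-aKG, against 12.4 to 18.8 CPM in KO-Veh. Lsm11, a protein of histone mRNA processing, ran from 8.41 to 16.9 CPM in KO-aKG, against 18.4 to 27.2 CPM in KO-Veh. The others were Cachd1 and Pgpep1, which were higher, and Stk11ip and 2810025M15Rik, which were lower. None was called in either fit.

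DESeq2 called 20 genes without covariates, 7 higher and 13 lower. All were abundant, but its filter on mean count left an adjusted p for 1443 genes only, so genes of low level could not be called. The smallest DESeq2 adjusted p, 0.0349, was shared by Taok1, Rbx1 and Chchd2. Taok1, a kinase, averaged 134 CPM in KO-aKG and 164 CPM in KO-Veh (edgeR log2 fold change −0.29, SE 0.07, adjusted p = 0.214). Hspe1, the co-chaperone of the mitochondrial matrix, ran from 142 to 224 CPM in KO-aKG, against 84.9 to 180 CPM in KO-Veh. Its edgeR log2 fold change was 0.41 (SE 0.12, adjusted p = 0.214), and 0.35 (SE 0.13) with region scores. In WT-aKG against WT-Veh Hspe1 gave 0.46 (SE 0.12, adjusted p = 0.193), and 0.45 (SE 0.11, adjusted p = 0.0398) with region scores, where it was called.

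The response to dm-αKG was also compared between genotypes. In WT-aKG against WT-Veh edgeR called 0 of 16255 genes (0%) without covariates, with 1389 (8.55%) at an unadjusted p under 0.05. DESeq2 called 90 but gave an adjusted p to 5540 genes only, and limma on log2(CPM + 1) called 0 of 13845. With region scores edgeR called 196 (1.21%), 128 higher (0.787%) and 68 lower (0.418%) in WT-aKG. Xist counts exceeded Ddx3y counts in 5 of 8 WT-aKG and 2 of 10 WT-Veh libraries. With a sex score (Xist against Y-linked genes) added to the region scores 54 genes were called. The part of this imbalance in the wild-type calls was not tested further. The difference between the knockout response and the wild-type response had 0 called genes (0%) without covariates, with 729 (4.48%) at an unadjusted p under 0.05, and 0 with region scores, with 610 (3.75%) at that level. DESeq2 and limma called 0 for this difference. Without KO-aKG-8 the number at an unadjusted p under 0.05, with no covariates, was 484. The difference for Eif4ebp1 was −0.70 (SE 0.36, unadjusted p = 0.0640, adjusted p = 0.961), for Chac1 −0.22 (SE 0.41) and for Shmt2 −0.28 (SE 0.16). No response was thus shown to differ between knockouts and wild types.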

How the data were processed

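RNA from brain tissue was sequenced as oligo-dT libraries with barcodes and molecular identifiers, per the labels' protocols. The roles of the genome builds mm10 and mm39 are not given, and the submitters' processing notes name, without order, the counter featureCounts 2.0.6, the aligner HISAT2 2.2.1, SAMtools 1.6, deepTools, and for read trimming and quality Trim Galore 0.6.10 with FastQC 0.12.1. The deposited table of rounded estimated counts held 56184 gene symbols. The deposited CPM values of 21637 genes, which are not the TMM-scaled CPM above, served as a check and as the input of limma. In the check 1 constant per library gave the counts back to within 0.5 for all of these genes but Cdhr17. Per library 85.6% to 88.7% of values were then whole within 0.02.

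All 36 libraries entered 1 edgeR 4.0.16 quasi-likelihood fit (R 4.3.3, TMM scaling, filterByExpr, 4 groups, Benjamini-Hochberg adjusted p under 0.05), without covariates and with 5 region scores (mean log2 CPM, prior count 2). limma 3.58.1 on the deposited CPM values and DESeq2 1.42.0 on the counts were alternatives. Single genes were tested by exact permutation on log2(CPM + 0.5), and the fit was tested on simulated data. Intervals cover 95%. Depth was 5.77 to 13.3 M counts per library, and whether counts are of molecules or reads is not given. Strand use in counting is not given, so overlapping genes are uncertain. Among 73 replicate pairs 0 were identical. The members and gene lists were chosen with earlier results of these data known. Genes were named as called genes by size (there were none), the 3 markers and Gpt2, and up to 4 of the most abundant members of each list. Other names were chosen after their values were seen.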

Additional observations from a re-analysis of the deposited data

Results flagged for a closer look

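In 66 groups of libraries examined, 5 held a library far from the others, and chance gives about 1 in 20. KO-Veh-7 stood apart from the other KO-Veh libraries in 3 scores: its cerebral cortex score of 2.29 was the lowest (gap over range 0.674), and its cerebellum score of 7.68 (0.616) and myelinating oligodendrocyte score of 6.75 (0.489) were the highest. In KO-aKG-4 the level of Sp6 was 2.79 CPM, the highest of KO-aKG (0.771), and that of Txnl4a was 33.9 CPM, the lowest of KO-aKG (0.568). The cause of these differences was not tested.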

How the results depend on the processing

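For KO-aKG against KO-Veh 0 genes were called in 32 of 33 settings, and DESeq2 called 20. Genes at an unadjusted p under 0.05 ran from 355 to 3391. The lowest number was without the libraries in which Xist exceeds Ddx3y, a setting chosen after seeing the data. It left out 13 libraries, 4 of KO-aKG and 2 of KO-Veh among them. The highest was without those high in cerebellum markers, 9 libraries with 1 of KO-aKG and 1 of KO-Veh among them. Leaving out each library gave 0 to 0. With region scores 1 gene (Gm12532) was called without a filter on low counts, and leaving out each library gave 0 to 1 (Gm28876, without KO-aKG-5 and without KO-aKG-7). For WT-aKG against WT-Veh the count was 196 with 5 region scores, 1 with the cerebellum score, 54 with region scores and a sex score, 90 with DESeq2 and 244 with the share of mitochondrial ribosomal RNA, the last chosen after seeing the data. Leaving out each library gave 0 to 0. The difference between genotypes had 0 calls in all 50 settings. The cause of these changes was not tested.

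Same-numbered libraries did not pair (8 pairs, correlations −0.168 to 0.482, 4 over 0.1, and 1 library best with its own number). With the replicate number as a block 0 genes were called, with 1832 at an unadjusted p under 0.05, and 0 with region scores, with 911. Over all settings Eif4ebp1 ran from −0.78 to −0.20, Chac1 from −0.58 to −0.14 and Shmt2 from −0.30 to −0.08. Of 3993 values of 121 named genes 353 moved by more than 1 SE and 293 changed sign, while 1 was called (Hspe1 with DESeq2, adjusted p = 0.0499). Precision was lower for genes of low level: under 1 CPM the interval lay within 2-fold for 580 of 1277 genes (45.4%), against 82.8% of all genes.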
